A study of Apis mellifera with 10 samples.

Results

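The classic odorant binding proteins of the honey bee (Apis mellifera) were examined in antennae of bees that had been injected as embryos to disrupt orco. The members were taken from a list of 9 gene symbols, matched to the count data by linkage group, start and end in the RefSeq gene table of Amel_HAv3.1. Of these, 8 were found (Obp1, Obp2, Obp4, Obp5, Obp6, Obp10, Obp11 and Obp12) among 12332 bee genes, and Obp8 had no entry and was not analysed here. The cysteine pattern that defines the class was taken from the list and not checked on protein sequence. Control antennae came from bees injected with buffer alone (5 libraries, replicates 3, 4, 5, 6 and 7). The orco_KO antennae came from bees injected with a CRISPR ribonucleoprotein against orco, the coreceptor gene of the odorant receptors (5 libraries, replicates 3, 5, 9, 11 and 12). All bees were adults reared in the laboratory and dissected no later than 24 hours after eclosion. The labels give neither the caste or sex of the bees, nor the number of bees behind a library, nor the share of cells that carry an edit, so a p-value here sets the difference between groups against a spread among libraries that may in part be technical.

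Odorant binding proteins are small soluble proteins that auxiliary cells around the olfactory neurons secrete into the lymph of a sensory hair. They carry hydrophobic odorants through this lymph towards the receptors on the neuron's dendrite, and in the classic class the fold is held by conserved cysteines joined in disulphide bridges. In the honey bee the first members were found as abundant antennal proteins, which is why the gene table lists Obp1, Obp2, Obp4, Obp5 and Obp6 also as asp1, asp2, asp4, asp5 and asp6. The coreceptor Orco acts in the neurons. The injected complex was directed at orco, and whether it also cut other genes was not tested.

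Libraries held 9497211 to 23453690 reads on bee genes in controls and 8577416 to 18308425 in orco_KO. The targeted gene, listed as Or2, was at 306 to 492 CPM (read counts scaled to a common library size over bee genes, with TMM factors) in controls and 14.2 to 36.1 CPM in orco_KO, and the groups did not overlap. Of 8 neuron markers listed 6 had a match, and elav and nSyb had none. Neuron markers changed with the group: 5 of 6 were lower in orco_KO, and Syx1A did not pass (log2 fold change 0.04, edgeR adjusted p = 0.926). The summed level of the 6 was 6330 to 15960 CPM in controls and 3378 to 5098 CPM in orco_KO. Of 9222 genes tested, 736 were lower and 421 higher in orco_KO (edgeR quasi-likelihood test, adjusted p below 0.05), against 698 and 600 with upper quartile scaling. Without control replicates 3, 6 or 7 or orco_KO replicate 3 the number of higher genes was 684, 250, 276 or 250. The first principal component, with 37.4% of the variance, separated the groups: controls scored -49 to -15.1 and orco_KO 15.4 to 52.6. On it control replicates 6 and 7, at -44.8 and -49, lay farthest from orco_KO. The component that ranked second, with 20.5% of the variance, separated the controls: replicates 6 and 7 scored -21.6 and -26.7, and the remaining controls between 10.9 and 58. Control replicate 3, at 58, was the most extreme of all libraries on it.

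The classic binding proteins included some of the most abundant transcripts of the antenna. Their reads together made up 1.44% ± 0.665 (SD, n = 5) of all bee gene reads in controls and 1.63% ± 0.274 (SD, n = 5) in orco_KO. Controls 3, 4, 5, 6 and 7 held 17790, 10094, 8229, 4029 and 4204 CPM of Obp2, a carrier that binds plant volatiles in vitro. The orco_KO libraries 3, 5, 9, 11 and 12 held 12823, 12785, 8992, 6151 and 11173 CPM of it. Control replicate 3 was thus the highest library and control replicates 6 and 7 were the lowest of all 10. For Obp1, known to bind components of the queen's mandibular pheromone, the control levels, in the same order, were 9951, 5695, 4686, 1948 and 1907 CPM. Its levels in orco_KO, again from replicate 3 to 12, were 5070, 4471, 4349, 4035 and 5842 CPM. The controls of Obp1 enclosed the orco_KO values from both sides. Obp1 and Obp2 together held 86.5% to 92.8% of the reads of the 8 genes in each of the 10 libraries.

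Levels of different genes were compared per kilobase of gene span, which includes introns and so understates genes with long introns. On this scale Obp2 ranked 2 among the 12332 genes in every library and Obp1 ranked between 3 and 5. The mean control level was 7821 ± 4963 CPM per kb for Obp2 and 2909 ± 1991 CPM per kb for Obp1 (SD, n = 5). Obp5 came next in each library, at 268 ± 227 CPM per kb in controls. Below it Obp4, Obp11 and Obp6 were at 65.4 ± 25.6, 63.8 ± 54.5 and 43.8 ± 24.7 CPM per kb in controls, values that on this scale did not differ beyond their spread. The place of Obp6 depends on its span of 25009 bases. In CPM, without division by span, the control mean of Obp6 was 1096 ± 618, above 309 ± 261 for Obp5. Those of Obp4 and Obp11 were 87.7 ± 34.4 and 54.0 ± 46.2 CPM. Obp10 and Obp12 had the lowest control means, at 10.2 ± 0.821 and 10 ± 3.17 CPM per kb. In orco_KO the first 3 places were the same in every library, Obp4 followed directly after them in every library at 115 ± 49.0 CPM per kb, and Obp12 was at 21.6 ± 13.3 CPM per kb against 9.81 ± 1.22 for Obp10 (SD, n = 5). The plot of levels by library shows these ranges for each gene.

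**Figure D1:**
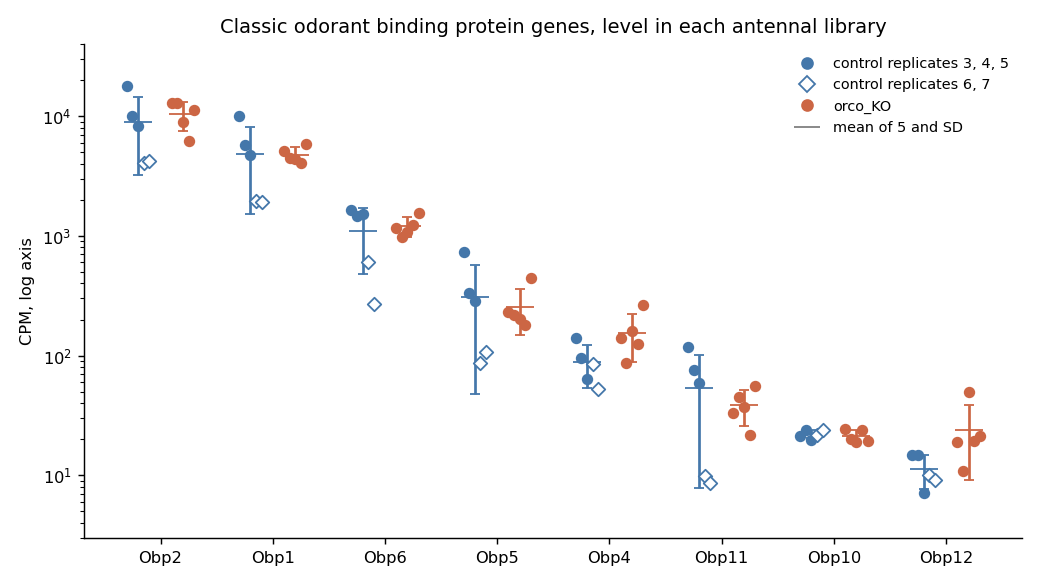
Level of each classic odorant binding protein gene in CPM (log axis) in the 5 control and 5 orco_KO libraries, with group means and SD as bars; open diamonds are control replicates 6 and 7. For Obp1, Obp2, Obp5, Obp6 and Obp11 these diamonds lie below every other library, while the points of Obp10 stay between 18.9 and 24.3 CPM.

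Of the 8 genes, 4 lay in a cluster on linkage group 9 of Amel_HAv3.1, all on the forward strand. In order these were Obp5 (11945173 to 11946322), Obp6 (11946731 to 11971739), Obp2 (11974257 to 11975390) and Obp4 (11981565 to 11982906). The gap between Obp5 and Obp6 was 408 bases. Between Obp2 and Obp4 lay Obp7 and Obp3, which are not on the list. The map of the cluster shows that neighbours differed widely in level: Obp7, which starts 1778 bases after the end of Obp2, was at 0.941 ± 0.324 CPM per kb in controls, and Obp3 had at most 7 reads in a library. Obp6 spans 25009 bases, so its level per kb of span understates it more than the levels of its short neighbours. Obp11 (10093970 to 10094816) and Obp10 (10095751 to 10097917) lay 934 bases apart on the reverse strand of linkage group 10. Obp1 lay alone on linkage group 2 (14654212 to 14655874, reverse strand) and Obp12 alone on linkage group 12 (6997861 to 6998979, reverse strand). No member overlapped another gene on its own strand, and genes on the other strand overlapped Obp1, Obp2, Obp4, Obp5, Obp6 and Obp11, where the stranded counting separates the reads.

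**Figure D2:**
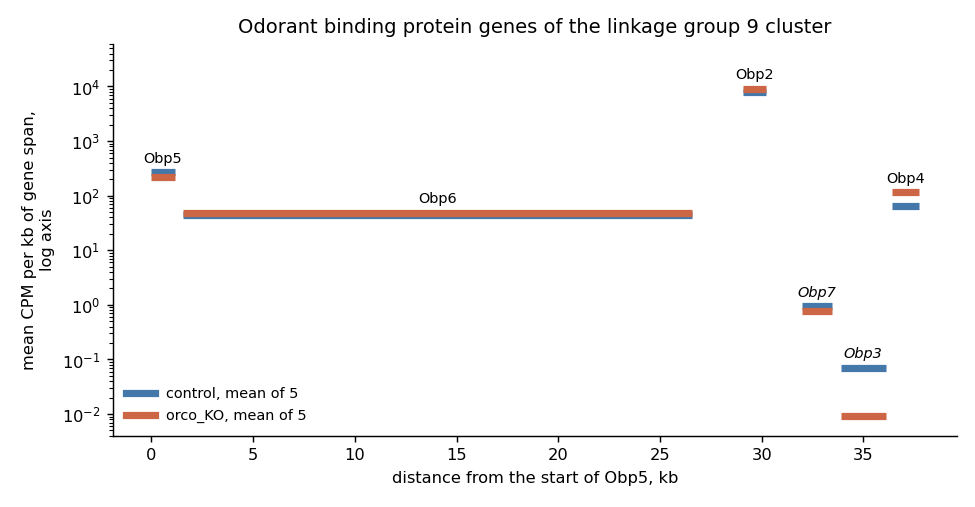
Mean level of the 6 odorant binding protein genes of the linkage group 9 cluster in CPM per kb of gene span (log axis) against distance from the start of Obp5 in kb, as bars as long as each gene, for controls and orco_KO (mean of 5 each). Obp7 and Obp3, in italics and not on the list, lie far below Obp2 and Obp4 on either side.

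The comparison of orco_KO with control asked whether carriers of odorants differ in level in antennae in which the receptor complex was targeted. All 8 genes passed the filter on low counts, with 76 reads as the smallest count in any library. By edgeR 1 of the 8 was higher (Obp12), none was lower and 7 did not pass, where 4.57% of all tested genes were higher, 7.98% were lower and 12.5% changed in either direction. At an unadjusted p below 0.05, 2 of the 8 were higher (Obp4 and Obp12), and 26.0% of all tested genes passed that threshold in either direction. DESeq2 called the same 2 genes higher and none lower, where 7.03% of its tested genes were higher and 7.86% lower. Limma-voom called Obp12 higher and none lower, where 5.61% of tested genes were higher and 7.99% lower. In none of the 8 did the groups separate fully, against 11.2% of tested genes. The median log2 fold change of the 8 was 0.05, and that of all tested genes was -0.06. In RNA from whole antennae, fewer cells of a type and less RNA per cell cannot be told apart.

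The level of Obp12 in controls 3, 4, 5, 6 and 7 was 14.9, 14.9, 7.09, 9.98 and 9.20 CPM. In orco_KO libraries 3, 5, 9, 11 and 12 it was 19.1, 10.9, 49.9, 19.4 and 21.3 CPM. Of the orco_KO libraries 4 lay above every control, and orco_KO replicate 5 lay within the control range. Obp12 rose by a log2 fold change of 1.12 (SE 0.348, 95% interval 0.38 to 1.87; edgeR adjusted p = 0.049), a 2.18-fold higher level. When each of the 10 libraries was left out in turn, Obp12 passed in 3 fits. It no longer passed when the library left out was control replicate 5, 6 or 7, or orco_KO replicate 3, 9, 11 or 12, and the adjusted p then reached 0.134. Without orco_KO replicate 9, the highest library, the log2 fold change was 0.67, and without control replicates 6 and 7 together it was 0.98 (adjusted p = 0.193).

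Obp4 levels in controls 3, 4, 5, 6 and 7 were 141, 96.1, 64.1, 85.3 and 52.1 CPM. Those in orco_KO libraries 3, 5, 9, 11 and 12 were 140, 87.1, 161, 124 and 262 CPM. Of the orco_KO libraries 2 were above every control and the other 3 lay within the control range. The log2 fold change was 0.82 (SE 0.3, 95% interval 0.18 to 1.47), which did not pass by edgeR (adjusted p = 0.0917) and passed by DESeq2 (adjusted p = 0.0424). It also passed by edgeR without control replicate 3 or without orco_KO replicate 5 (adjusted p = 0.0217 and 0.0453). Without control replicates 6 and 7 together the value was 0.62 (adjusted p = 0.287).

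The other cluster genes and Obp11 had wide control ranges that held all or nearly all of the orco_KO values. Obp5 levels, with libraries in the order given above, were 735, 330, 283, 87.1 and 108 CPM for controls. They were 233, 217, 203, 181 and 442 CPM for orco_KO. Control replicate 3 was the highest library of Obp5, and control replicates 6 and 7 were below every orco_KO library. Obp6 had 1635, 1461, 1515, 600 and 270 CPM in controls in the same order. Its orco_KO values were 1158, 985, 1078, 1225 and 1564 CPM in replicates 3, 5, 9, 11 and 12. The first 3 controls of Obp6 lay close together, and control replicates 6 and 7 again lay below every orco_KO library.

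Obp11, known from worker and queen antennae, where it was located in sensilla basiconica, had the widest range of the 8. Controls 3, 4, 5, 6 and 7 held 117, 75.9, 58.7, 9.79 and 8.56 CPM of Obp11, a 13.7-fold range. The orco_KO libraries 3, 5, 9, 11 and 12 held 33.4, 45.3, 37.1, 21.8 and 55.4 CPM. All 5 orco_KO libraries thus lay in the gap between control replicates 3, 4 and 5 above and control replicates 6 and 7 below. The log2 fold change over all libraries was -0.47 (SE 0.574, 95% interval -1.71 to 0.76; edgeR adjusted p = 0.654). Without control replicates 6 and 7 together it was -1.12 (SE 0.277, edgeR adjusted p = 0.0204), the only one of the 8 genes called in that fit, where 2.18% of tested genes were higher and 7.71% lower. These 2 libraries, the lowest of the 10 for Obp11, were left out with earlier results known. A lower value had to follow, so this p-value is no independent support. In limma-voom, which averages on the log scale, the value over all libraries was 0.23 (adjusted p = 0.86).

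None of the remaining changes passed by edgeR. The log2 fold change was 0.23 for Obp2 (95% interval -0.59 to 1.04), -0.03 for Obp1 (-0.85 to 0.80), 0.13 for Obp6 (-0.68 to 0.95) and -0.27 for Obp5 (-1.29 to 0.75). The interval of Obp2 holds a doubling but not a halving, and that of Obp5 a halving but not a doubling. The intervals of Obp1 and Obp6 hold neither, and changes within these bounds could not be told from no change at this spread. Without control replicates 6 and 7 together the values of Obp2, Obp1, Obp6 and Obp5 were -0.21, -0.51, -0.36 and -0.82, with adjusted p of 0.746, 0.22, 0.238 and 0.157. The signs of Obp2 and Obp6 were then opposite to those over all libraries. The median of the 8 genes was -0.29 in that fit and that of all tested genes was 0.

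**Figure D3:**
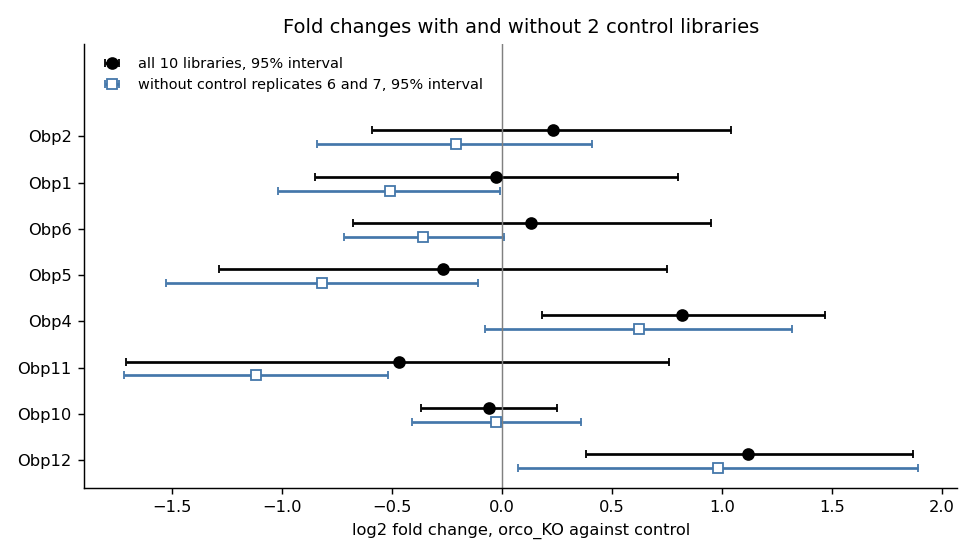
Log2 fold change of each classic odorant binding protein gene, orco_KO against control, with its 95% interval over all 10 libraries (filled) and without control replicates 6 and 7 (open). Leaving out these libraries gave lower values for every gene but Obp10, which stayed near 0, and the smallest of these shifts were those of Obp4 (0.82 to 0.62) and Obp12 (1.12 to 0.98).

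The 8 genes also differed in how far their control libraries lay apart. The SD of log2 CPM over the controls was 1.75 for Obp11, 1.26 for Obp5, 1.13 for Obp6, 1.03 for Obp1 and 0.902 for Obp2, against a median of 0.402 over all tested genes. Of all tested genes, 99.5%, 97.7%, 96.6%, 95.4% and 92.5% had a smaller control SD than these. In orco_KO the SD of the same 5 genes was 0.507, 0.505, 0.252, 0.21 and 0.446, against a median of 0.332. Obp1 and Obp6 were thus among the more variable genes in controls and below the median in orco_KO. Obp4, Obp12 and Obp10 had the larger SD in orco_KO, at 0.58 against 0.551, 0.782 against 0.461 and 0.176 against 0.116. The SD was thus larger in controls for 5 of the 8 genes, close to the share of 60.6% among all tested genes. No test of these spreads was made.

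**Figure D4:**
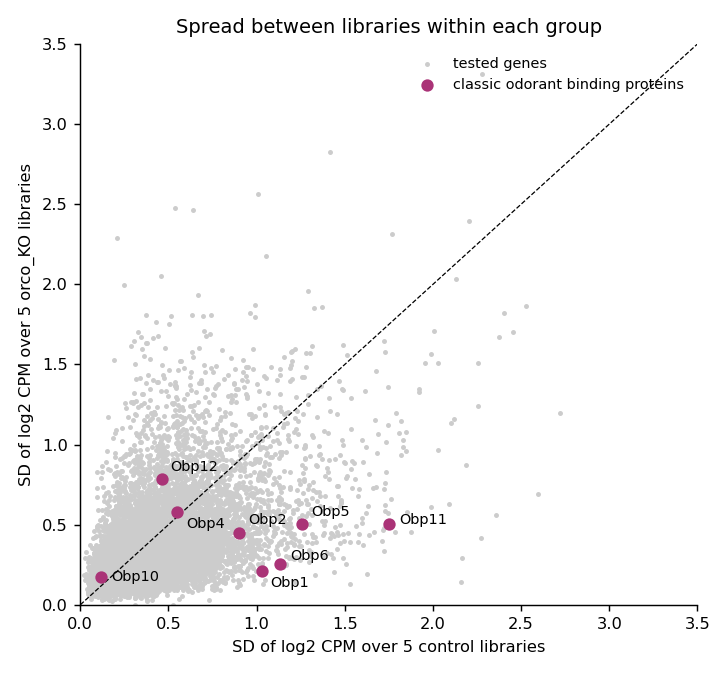
SD of log2 CPM over the 5 orco_KO libraries against SD over the 5 control libraries, for all tested genes (grey) and the classic odorant binding proteins (purple); the dashed line marks equal spread. Obp1, Obp2, Obp5, Obp6 and Obp11 lie far to the right, while Obp10 lies near the origin.

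The control libraries were ordered alike by several of the genes. Control replicate 3 was highest for Obp1, Obp2, Obp4, Obp5, Obp6 and Obp11, and control replicates 6 and 7 were the lowest for 5 of the 8 genes, where this held for 24.8% of all tested genes. The library totals moved with this order: control replicate 3 was the shallowest control at 9497211 reads, and control replicates 6 and 7 were the deepest at 21580111 and 23453690 reads, with TMM factors of 0.7836, 1.225 and 1.265. As a share of bee gene reads, without TMM scaling, control replicates 6 and 7 were still the lowest controls for Obp1, Obp2, Obp5, Obp6 and Obp11, with Obp2 at 1.39% in control replicate 3 and 0.494% and 0.532% in control replicates 6 and 7. On that scale control replicate 3 was no longer the highest control for Obp6 (0.128%, against 0.149% and 0.138% in control replicates 4 and 5). The order of the controls also changed for Obp1, Obp4, Obp10 and Obp12, and stayed the same for Obp2, Obp5 and Obp11. For Obp1 only control replicates 6 and 7 changed places (0.239% and 0.241%). Of the genes listed for fat body and hemolymph 5 of 6 had a match, and their summed level was 5.33 and 11.2 CPM in control replicates 6 and 7, 28.1 to 98.5 CPM in the other controls and 20.6 to 82.9 CPM in orco_KO. Among them Hex70a, Hex70b and Hex70c were at 0 in some libraries, and Vg, the egg yolk precursor vitellogenin, held most of the level with a mean of 35.0 CPM in controls. Summed neuron markers were also lower in control replicates 6 and 7 (6403 and 6330 CPM) than in the other controls (9454 to 15960 CPM). The gap was widest for brp, at 1402 and 1138 CPM against 3738 to 7348 CPM. Each of these markers was lower in the pair except Nrx-1, at 872 and 957 CPM against 829 to 1197 CPM. The pair differed in reads on virus features: control replicate 6 held 2813, against 58 in control replicate 7 and 2 to 134 in the other libraries. The part of depth, of these cell types, of virus and of the 2 libraries in the binding protein levels was not tested.

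**Figure D5:**
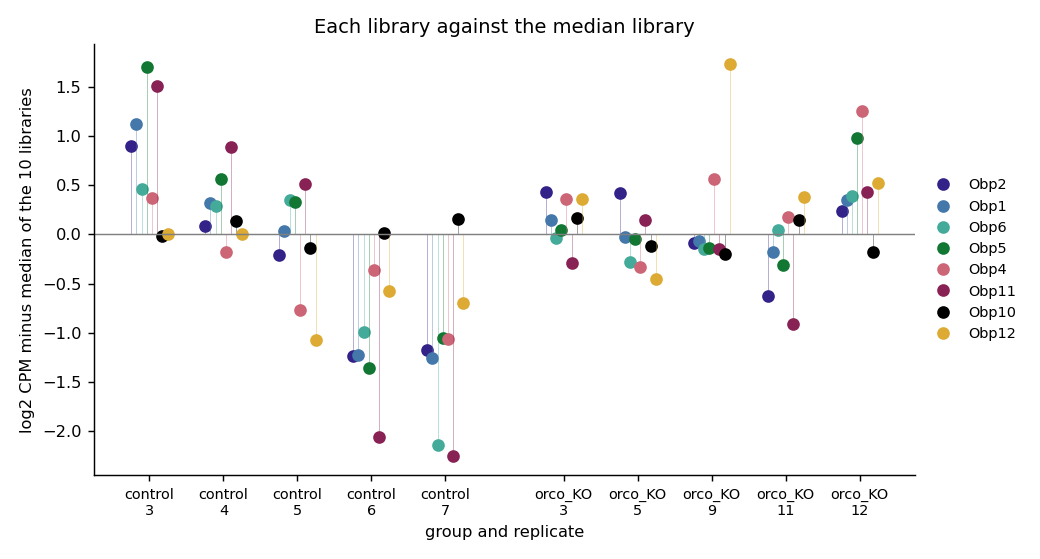
Log2 CPM of each classic odorant binding protein gene in each library minus that gene's median over the 10 libraries. Control replicate 3 is high and control replicates 6 and 7 are low for most genes, orco_KO replicate 9 is high for Obp12, and Obp10 stays near 0 throughout.

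Ratios of reads within a library do not depend on its scaling. Obp1 had 0.454 to 0.569 reads for each read of Obp2 in controls and 0.35 to 0.656 in orco_KO. The pair thus kept its ratio within a 1.88-fold range over the 10 libraries, while each gene alone ranged 5.22-fold and 4.42-fold in CPM. This contrast came from the controls, where the ratio ranged 1.26-fold: within orco_KO the ratio ranged 1.88-fold, Obp1 alone 1.45-fold and Obp2 alone 2.08-fold. Obp5 kept its ratio to Obp1 within a 1.69-fold range, while Obp5 alone ranged 8.44-fold. Here too the contrast came from the controls, where the ratio ranged 1.65-fold and Obp5 alone 8.44-fold. Within orco_KO the ratio ranged 1.68-fold, Obp5 alone 2.44-fold and Obp1 alone 1.45-fold. Obp11 against Obp2 ranged from 0.00204 to 0.00752 in controls, with control replicates 6 and 7 lowest (0.00243 and 0.00204), and from 0.0026 to 0.00496 in orco_KO. Obp11 was therefore lower in these control libraries even relative to Obp2.

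Obp10 was the most even of the 8 genes. Its levels in controls 3, 4, 5, 6 and 7 were 21.4, 23.7, 19.8, 21.9 and 24.1 CPM. The levels of Obp10 in orco_KO libraries 3, 5, 9, 11 and 12 were 24.3, 20, 18.9, 23.9 and 19.2 CPM. The groups overlapped, and the 10 libraries lay within a 1.29-fold range in CPM, although Obp10 had 139 to 715 reads per library. This narrow range depends on TMM scaling. As a share of bee gene reads, Obp10 ranged from 0.00162% in orco_KO replicate 5 to 0.00305% in control replicate 7. On that scale control replicates 6 and 7 were the highest controls (0.00268% and 0.00305%) and control replicate 3 the lowest (0.00167%). Only 3.05% of tested genes had a smaller control SD than Obp10. The log2 fold change was -0.06 (95% interval -0.37 to 0.25; edgeR adjusted p = 0.832), an interval that does not reach a 2-fold change in either direction. Its neighbour Obp11 had 5.49 reads for each read of Obp10 in control replicate 3 and 0.355 in control replicate 7, a 15.5-fold range over the 10 libraries.

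The genes outside the list that moved most like each member were found by the root mean square difference of log2 CPM, centred on the group means, over the 10 libraries. For Obp1 these were LOC552277 (0.135) and LOC100577795 (0.15), and for Obp2 LOC551028 (0.15) and LOC100576326 (0.174). For Obp5 they were LOC727202 (0.25) and Obp16 (0.293), a binding protein of the cluster on linkage group 15. For Obp6 they were LOC100577538 (0.205) and Y-y (0.255), and for Obp11 LOC727157 (0.27) and LOC113218576 (0.328). For Obp4 they were LOC412458 (0.236) and the catalase gene Cat (0.24), and for Obp12 LOC107965445 (0.285) and LOC551986 (0.291). For Obp10 they were LOC411857 (0.0659) and LOC412524 (0.0776), values that are small for any pair of genes with little spread. Among the members the closest pairs were Obp1 with Obp2 (0.243) and Obp1 with Obp5 (0.258), and Obp10 with Obp11 was the most distant (1.21).

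The other odorant binding proteins gave the context of the family. Of 11 further genes with an Obp symbol 7 passed the filter on low counts, none changed by edgeR or DESeq2, and 1 (Obp15) had an unadjusted p below 0.05. Their log2 fold changes had a median of 0.51, with 6 of 7 above 0: 1.15 for Obp15, 0.95 for Obp21, 0.67 for Obp19, 0.51 for Obp17, 0.46 for Obp18, 0.20 for Obp16 and -0.26 for Obp7. Without control replicate 4, edgeR called Obp15 and Obp19 higher (adjusted p = 0.0421 and 0.0416). Obp3, Obp9, Obp13 and Obp14 were not tested and had at most 20 reads in a library. Of 5 chemosensory proteins, a second family of soluble carriers, none changed by edgeR, DESeq2 called 1 higher, and their summed level was 1714 to 4698 CPM in controls and 3371 to 5467 CPM in orco_KO. The odorant receptors, which act in the neurons, differed from both carrier families in their counts: of 29 tested receptors other than Or2, 21 fell and none rose by edgeR, DESeq2 called 1 higher, and the median log2 fold change was -1.98. The receptor list held only the 34 genes other than Or2 with Or and a number as symbol or synonym. Receptor genes without such a name were not counted. The summed level of the listed receptors was 141 to 178 CPM in controls and 47.0 to 106 CPM in orco_KO. Control replicates 6 and 7, lowest for many binding proteins, were at 163 and 157 CPM of summed receptors, within the range of the other controls.

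Markers of other tissues that a dissected antenna could hold were examined in the same libraries. Of 7 muscle markers listed 3 had a match, and TpnC, Mhc, Tm1 and Mlc had none. Of the 3 matched, TpnT rose (log2 fold change 1.17, edgeR adjusted p = 0.0345) and Argk, arginine kinase, fell by 0.97 (adjusted p = 0.00365). Their summed level was 1710 to 3312 CPM in controls and 2055 to 5414 CPM in orco_KO. The summed level of the 4 head gland markers was at most 0.545 CPM in controls and 1.40 CPM in orco_KO, and each was at 0 in some libraries. The 4 eye markers summed to 3.09 to 9.24 CPM in controls and 5.75 to 13.3 CPM in orco_KO, and 2 of them were tested. Blop, the blue opsin gene, rose (log2 fold change 1.57, adjusted p = 0.0188), and Uvop, the ultraviolet opsin gene and the most abundant of the 4, did not pass (-0.20, adjusted p = 0.761). Of 2 glial markers listed only Eaat-2 had a match, so glia were followed by this 1 gene alone. Eaat-2 fell by 3.09 on the log2 scale (edgeR adjusted p = 0.000127), from 6.24 to 9.14 CPM in controls to 0.232 to 1.60 CPM in orco_KO. The auxiliary cells that secrete the binding proteins had no marker of their own in these lists, so their share could not be followed apart from the binding proteins. The part of these cell types in the levels of Obp12 and Obp4 was not tested.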

How the data were processed

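RNA from antennae of 5 control and 5 orco_KO samples was sequenced from both ends on a single lane, after removal of ribosomal RNA and with a stranded kit, per the labels' protocols. The deposited values are raw read counts for each gene and library. Per the submitters' processing notes the aligner was STAR 2.7.3a. Per the file headers featureCounts 2.0.0 counted reads on the reverse strand over the whole gene span. Reads in introns thus count, and reads that map to several places or to overlapping genes on the same strand do not. Virus features (5 of 12337) were left out of library sizes.

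Groups were compared with edgeR 4.0.16 (R 4.3.3): filterByExpr, TMM and the quasi-likelihood test without covariates, with p adjusted by Benjamini-Hochberg over 9222 genes and called below 0.05. SE is the log2 fold change over the square root of F, and 95% intervals use the degrees of freedom of the fit. DESeq2 1.42.0 and limma-voom 3.58.1 were alternatives, with other scalings, no filter, a replicate block and libraries left out. CPM uses TMM-scaled library sizes. Log2 CPM uses a prior count of 2, except for the log2 levels of single odorant binding protein genes by library, which use none. The fit was tested on simulated counts. Figures were drawn with matplotlib 3.10.9. The named genes were all members found, the other Obp genes, Or2, the 2 genes most like each member, and some list members, past the threshold or not. Members, lists and the 2 control libraries left out together were chosen with earlier results of these data known. Protein and promoter sequences were not used here.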

Additional observations from a re-analysis of the deposited data

Results flagged for a closer look

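In 32 groups of 5 libraries, covering the tested odorant binding proteins and Or2, a gap rule for the highest or lowest library picked out 3 values. Chance alone gives about 1 in 20 groups if values are normally distributed, which was not tested for these CPM values. Obp12 in orco_KO replicate 9 was at 49.9 CPM, and the next library of the group was at 21.3 CPM. Obp5 in orco_KO replicate 12 was at 442 CPM, and the next was at 233 CPM. Obp19, a binding protein outside the classic list, was at 89.1 CPM in control replicate 4 and at 7.79 CPM or less in the other controls. In orco_KO, Obp19 was at 96.9 CPM in replicate 3 and 53.7 CPM in replicate 9, and between 4.60 and 7.04 CPM in the others.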

How the results depend on the processing

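The number of higher genes among all genes was 421, 755 by DESeq2, 200 without control replicates 6 and 7 together and 250 to 684 when single libraries were left out. Of the 8 classic binding proteins, 1 was higher and 0 lower, against 2 higher by DESeq2, 0 higher and 1 lower without control replicates 6 and 7, and 0 to 2 higher and 0 lower when single libraries were left out. The titles share only the numbers 3 and 5 between groups, and the labels do not tie them. Deviations of same-numbered libraries had correlations of 0.0793 and 0.14 over 9222 genes, and of differently numbered ones 0.22 and -0.142. So few pairs cannot tell whether libraries with the same number share more than the number. With the replicate block, which rests on these 4 libraries and 1 residual degree of freedom, 0 classic genes were higher and 2 lower (Obp5, -1.02; Obp11, -1.09), where 4.07% of tested genes were higher and 6.45% lower, 4 other binding proteins were higher, and Obp6 (-0.56), Obp10 (0.10), Obp16 (-0.04) and Obp21 (-0.44) changed sign. Of the other binding proteins 0 to 2 were higher with single libraries left out. Receptors other than Or2 had 1 higher by DESeq2 and 0 to 1 with single libraries left out. Chemosensory proteins had 1 higher with upper quartile scaling and by DESeq2, and 0 to 2 with single libraries left out.

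Signs of values that did not pass changed in these cases. Obp1 was at 0.01 with RLE scaling, 0.05 with upper quartile scaling, 0.01 by DESeq2 and 0.19 by limma-voom. By limma-voom Obp5 was at 0.03 and Obp11 at 0.23. Without control replicates 6 and 7 together, Obp2 was at -0.21, Obp6 at -0.36, Obp16 at -0.38 and Obp19 at -0.04. With single libraries left out the log2 fold changes ranged from -0.23 to 0.44 for Obp1, -0.54 to 0.36 for Obp5, -0.12 to 0.35 for Obp6, -0.11 to 0 for Obp10, -0.75 to 0.04 for Obp11, -0.06 to 0.83 for Obp16 and -0.23 to 3.1 for Obp19. The cause was not tested. A library size without Obp1 and Obp2 reads, chosen after seeing the data, and keeping virus features changed no call of the 8. Counting error is largest for Obp12, which had the lowest count of the 8, with 76 reads in 1 library.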
